A study of Mus musculus with 4 samples.

Results

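The genes described here are the receptor chains of the type I and type II interferons (Ifnar1, Ifnar2, Ifngr1 and Ifngr2), the JAK kinases (Jak1, Jak2, Jak3 and Tyk2), and interferon beta and gamma (Ifnb1 and Ifng). They were chosen by their symbols, and all 10 were found among the 48897 genes of the deposited table, of which 8 passed the filter on low counts. RNA-Seq was performed on retinas of wild-type C57BL/6 mice at postnatal day 9 (P9), after an intravitreal injection of 1 μl at P3. The left eyes received 0.6 nmol of miR-124-3p antagomir, an antisense oligonucleotide that binds the mature microRNA (anti-miR-124 group, 2 libraries). The right eyes received the scrambled antagomir control (negative control, NC group, 2 libraries). Each group consisted of pooled retinas from several litters, so the animals behind a library cannot be separated, and a p-value measures only the spread between these libraries. All anti-miR-124 libraries came from left eyes and all NC libraries from right eyes, so the eye and the oligonucleotide cannot be told apart from the knockdown. The groups are thus the fellow eyes of injected mice, but no source used here says whether libraries of 1 number came from the same mice. Left-eye and right-eye libraries with a shared number are referred to as pair A (the lower number) and pair B.

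Type I interferons (the alpha and beta families) bind a receptor made of the chains IFNAR1 and IFNAR2, and type II interferon (gamma) binds IFNGR1 with IFNGR2. The receptor chains have no enzyme activity of their own and carry JAK tyrosine kinases on their inner side, TYK2 and JAK1 on the type I receptor and JAK1 and JAK2 on the type II receptor. The kinases phosphorylate transcription factors of the STAT family. A STAT complex with IRF9 binds the interferon-stimulated response element (ISRE), while STAT dimers bind the gamma-activated site (GAS). JAK3 works with the common gamma chain of the interleukin receptors and is best known from lymphoid and myeloid cells. The question of the comparison was how the transcripts of these sensors and kinases, and of possible sources of interferon, differed after knockdown of miR-124-3p.

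The promoters of the 10 genes were searched for both elements, to describe which of them hold these letters near the RefSeq start. The window ran from 250 bases before to 50 bases after the start (RefSeq, GRCm38.p6). The ISRE was searched on both strands as GAAA and GAAA with any 2 bases between, and the GAS as TTC and GAA with any 3 bases between, which reads the same on both strands. An ISRE match was found in 0 of the 10 promoters, against 3.99% of 27025 genes with a promoter sequence and 12 of 21 type I interferon response genes with one. A GAS match was found in 3 of the 10, against 9.55% of all genes. In the following lines the capitals mark the match, and each sequence is written 5′ to 3′ on the strand of its gene. Distances run from the first base of the match to the RefSeq start. The deposited Ifnar1 starts earlier, at 91485087, so its match lies inside the gene as deposited.
Ifnar1 (chr16:91485200-91485228, + strand, match 5 bases before the start): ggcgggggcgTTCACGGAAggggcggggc
Ifnar2 (chr16:91372559-91372587, + strand, match 214 bases before the start): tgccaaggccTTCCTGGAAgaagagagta
Ifng (chr10:118440796-118440815, + strand, at the edge of the window): tTTCAGAGAAtcccacaaga
For comparison, ISRE matches of Isg15, of Stat2 and of the inhibitor gene Socs1 are shown. In Stat2 the match lies on the other strand, so that it reads TTTC and TTTC with 2 bases between.
Isg15 (chr4:156200871-156200900, - strand): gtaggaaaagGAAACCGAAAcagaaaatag
Stat2 (chr10:128270266-128270295, + strand): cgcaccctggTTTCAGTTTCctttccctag
Socs1 (chr16:10785594-10785623, - strand): gccggaaagaGAAACCGAAAgcgggggtgg
The 2 chains of the type I receptor thus held a GAS match and no ISRE match, and the promoters of Ifngr1, Ifngr2, Jak1, Jak2, Jak3, Tyk2 and Ifnb1 held neither. A match is a description of the letters and was not tested as a binding site. A missing match does not show that an element is absent, since only exact letters in this window were searched.

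The libraries held between 16317239 and 18726963 counts on genes. Levels are given as TPM, a length-corrected share of all transcripts, computed from the counts and the deposited gene lengths, and differences as log2 fold changes of the anti-miR-124 group over the NC group from edgeR. In the NC library of pair A, 19 lens markers took 6.50% of the TPM sum, against 0.0129% to 0.0183% in the other libraries. This lowers all other TPM values of that library, and the median log2 TPM ratio over 16128 genes was 0.10 within pair A and -0.003 within pair B. Ratios between pairs are therefore also given after TMM normalization, which scales libraries to the bulk of their genes and gave medians over all tested genes of -0.01 for pair A and 0.003 for pair B. The tissue label was borne out by the photoreceptor transcripts Crx and Nrl, which had at least 19031 counts in every library.

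Ifnb1, on chromosome 4 from 88522025 to 88522794, had 0 counts in all 4 libraries. A total of 3 counts, the limit that a count of 0 allows, would have been 0.685 to 0.746 TPM. Ifng, on chromosome 10 from 118441046 to 118445894, had 1 count in the NC library of pair A and 0 in the other libraries, and 3 counts would have been 0.436 to 0.475 TPM. Ifnb1 was thus not detectable at this depth, Ifng was seen as a single read, and no difference was tested for either. The list of 19 other interferon genes held the alpha family, Ifnab, Ifne, Ifnk, Ifnz, Ifnl2 and Ifnl3. Over all 21 interferon genes together, 5 counts were found in the NC library of pair A and 1 in that of pair B, and 0 in both anti-miR-124 libraries. The alpha genes are near-identical copies of each other, and how shared reads were counted is not given in the sources used here. Another list held 14 markers of T cells, NK cells and plasmacytoid dendritic cells. It does not cover all cells that can make interferons. Of these, 5 had 0 counts in all libraries, among them the T cell genes Cd3d and Cd3e and the NK cell genes Ncr1 and Prf1. Others were counted in every library, such as Cd8a (63 and 65 counts in NC retinas, 68 and 98 in anti-miR-124 retinas). The same held for Cd4 (36 and 21, 43 and 42) and Lck (17 and 12, 22 and 31). Siglech (18 and 18, 29 and 27) and Ccr9 (22 and 38, 29 and 22), listed for plasmacytoid dendritic cells, were also counted in every library. Cd3g, a further T cell gene, had 1 count in the NC library of pair B and 0 in the others. Which cells these transcripts came from was not tested.

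Ifnar1, the type I receptor chain that carries TYK2, lies on chromosome 16 from 91485087 to 91510523. It had 45.7 and 50.5 TPM in NC retinas of pairs A and B and 47.7 and 52.5 TPM in anti-miR-124 retinas. The groups overlapped, and the log2 fold change was 0.01 (standard error 0.07, 95% interval -0.17 to 0.19, adjusted p = 0.998, edgeR's quasi-likelihood test). As a fold this interval runs from 0.887 to 1.14, and the value was -0.049 without the pair B anti-miR-124 library. Ifnar2, the chain that carries JAK1, lies on chromosome 16 from 91372783 to 91405589. It had 6.57 and 6.16 TPM in NC retinas and 5.67 and 6.60 TPM in anti-miR-124 retinas, from 124 to 157 counts. The groups overlapped, and after TMM normalization the log2 ratios of Ifnar2 were -0.32 within pair A and 0.10 within pair B. The log2 fold change of Ifnar2 was -0.11 (standard error 0.18, 95% interval -0.54 to 0.33, adjusted p = 0.989, edgeR), and 0.0096 without the pair A NC library. In a whole tissue, fewer cells of a type and less RNA per cell cannot be told apart, here and in all results that follow.

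Ifngr1, the ligand-binding chain of the type II receptor, lies on chromosome 10 from 19591958 to 19610225. It had 41.6 and 45.3 TPM in NC retinas and 48.6 and 47.8 TPM in anti-miR-124 retinas. Both anti-miR-124 values lay above both NC values, and after TMM normalization the log2 ratios were 0.12 for pair A and 0.08 for pair B. The fitted log2 fold change of Ifngr1 was 0.10 (standard error 0.08, 95% interval -0.09 to 0.29, adjusted p = 0.989, edgeR). Ifngr2, the chain that carries JAK2, lies on chromosome 16 from 91547094 to 91564007. It had 43.9 and 48.7 TPM in NC retinas and 53.1 and 51.7 TPM in anti-miR-124 retinas. The groups did not overlap here either, and the log2 fold change of Ifngr2 was 0.13 (standard error 0.08, 95% interval -0.06 to 0.32, adjusted p = 0.989, edgeR). As folds, the intervals of Ifngr1 and Ifngr2 ended at 1.22 and 1.24.

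**Figure D1:**
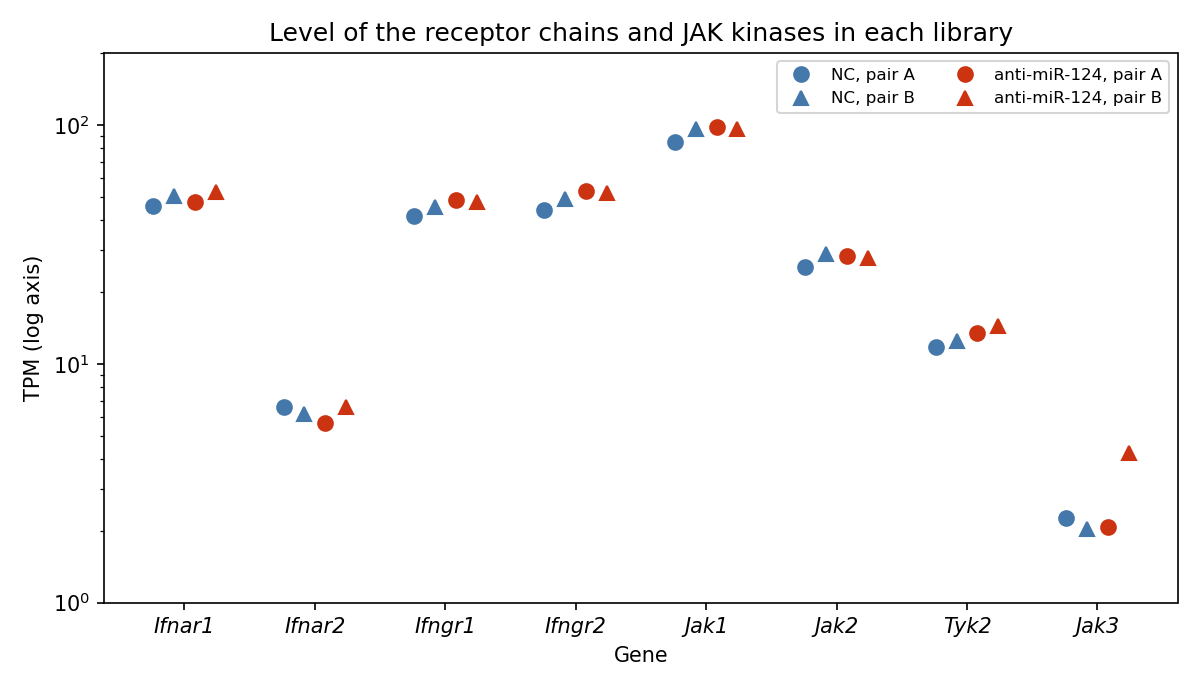
Level in TPM (log axis) of the 4 receptor chains and 4 JAK kinases in each library, with NC libraries in blue and anti-miR-124 libraries in red, circles for pair A and triangles for pair B. Jak1 was at 84.5 to 98.1 TPM and Jak3 at 2.03 to 4.22 TPM, and Jak3 in the pair B anti-miR-124 library was the point farthest from the other libraries of its gene.

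Jak1, the kinase shared by both receptors, lies on chromosome 4 from 101151974 to 101265291. It had 84.5 and 95.8 TPM in NC retinas and 98.1 and 96.5 TPM in anti-miR-124 retinas, from at least 2489 counts. By TMM-normalized counts both anti-miR-124 libraries of Jak1 lay above both NC libraries, by a log2 ratio of 0.11 within pair A and 0.01 within pair B. The log2 fold change of Jak1 was 0.06 (standard error 0.07, 95% interval -0.11 to 0.24, adjusted p = 0.989, edgeR). Jak2, the second kinase of the type II receptor, lies on chromosome 19 from 29251708 to 29313080. It had 25.5 and 28.7 TPM in NC retinas and 28.3 and 27.8 TPM in anti-miR-124 retinas. The groups of Jak2 overlapped, with a log2 fold change of 0.001 (standard error 0.07, 95% interval -0.16 to 0.16, adjusted p = 1.00, edgeR), whose sign turned with upper quartile normalization and when either library of pair A was left out. This was the narrowest interval of the 8 genes, and as a fold it ran from 0.894 to 1.12.

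Tyk2, the second kinase of the type I receptor, lies on chromosome 9 from 21104068 to 21131275. It had 11.7 and 12.5 TPM in NC retinas and 13.5 and 14.4 TPM in anti-miR-124 retinas, from 318 to 420 counts. Both anti-miR-124 values were above both NC values, with log2 ratios after TMM normalization of 0.09 within pair A and 0.21 within pair B. The log2 fold change of Tyk2 was 0.16 (standard error 0.09, 95% interval -0.07 to 0.38, unadjusted p = 0.147, adjusted p = 0.989, edgeR), the smallest unadjusted p of the 8 genes. Jak3, the kinase of the common gamma chain, lies on chromosome 8 from 71676383 to 71690577. It had 49 and 45 counts in NC retinas and 44 and 98 in anti-miR-124 retinas, which are 2.26, 2.03, 2.06 and 4.22 TPM. Only the pair B anti-miR-124 library stood above the other 3. The log2 fold change of Jak3 was 0.50 (standard error 0.38, 95% interval -0.41 to 1.41, adjusted p = 0.989, edgeR). It was -0.09 without that library and 0.91 without the pair A anti-miR-124 library.

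Of the 8 tested genes, 0 had an adjusted p-value under 0.05 with edgeR, and 0 had an unadjusted p-value under 0.05 with edgeR, DESeq2 or limma-voom. Over all 17766 tested genes, 0% had an adjusted p-value under 0.05 with edgeR, the smallest being 0.487, and 3.91% had an unadjusted p-value under 0.05 (2.23% higher and 1.68% lower). By TMM-normalized counts the groups did not overlap for Ifngr1, Ifngr2, Jak1 and Tyk2, all 4 higher in the anti-miR-124 group, against a background of 33.3% of genes in either direction, 16.5% higher and 16.8% lower. By TPM, Ifnar1 and these 4 genes had a higher value with the antagomir in both pairs, against 32.9% of genes, and 14.3% had a lower value in both. After TMM normalization Ifnar1 was lower in pair A, when 22.6% of genes had 2 higher pairs and 24.2% had 2 lower pairs. For the 8 genes the median log2 fold change was 0.08 by the fit, 0.07 within pair A and 0.08 within pair B, while the median over all tested genes was 0.0007.

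The order of the levels was the same in both groups except among the receptor chains. Jak1 had the highest level in all 4 libraries, with 90.1 ± 7.99 TPM in the NC group (SD, n = 2) and 97.3 ± 1.11 TPM in the anti-miR-124 group. Ifnar1, Ifngr2 and Ifngr1 followed with NC means of 48.1 ± 3.44, 46.3 ± 3.43 and 43.4 ± 2.60 TPM (SD, n = 2). The means of Ifnar1 and Ifngr1 both lay within the SD of Ifngr2 around its mean, while they differed from each other by more than either of their SDs. Ifnar1 was above Ifngr2 in 3 of 4 libraries, and Ifngr2 was above Ifngr1 in all 4. Jak2 (27.1 ± 2.23 TPM), Tyk2 (12.1 ± 0.546), Ifnar2 (6.37 ± 0.295) and Jak3 (2.14 ± 0.165) came next in NC means, each above the next gene in all 4 libraries. The lengths used were 7142 bases for Ifnar1, 4186 for Ifnar2, 2099 for Ifngr1, 2070 for Ifngr2, 5554 for Jak1, 10846 for Jak2, 4085 for Jak3 and 5112 for Tyk2, and a level per length depends on them.

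Ratios of TPM within a library do not depend on how the libraries are scaled to each other. The chains of the type I receptor were unequal, with 6.95 and 8.21 times as much Ifnar1 as Ifnar2 in NC retinas and 8.40 and 7.95 times in anti-miR-124 retinas. The chains of the type II receptor were close to equal, with an Ifngr1 to Ifngr2 ratio of 0.947 and 0.929 in NC retinas and 0.916 and 0.924 in anti-miR-124 retinas. The ratio of Jak1 to Jak2 was 3.31 and 3.34 in NC retinas and 3.46 and 3.47 in anti-miR-124 retinas. The groups did not overlap for 4 of the 7 ratios computed, which were Jak1 over Jak2 (higher in anti-miR-124 retinas) and Ifngr1 over Ifngr2, Jak2 over Tyk2 and Ifnar1 over Ifngr1 (lower). Several of these ratios share a gene, so they are not separate observations, and the share of such ratios over other genes was not computed. With 2 libraries per group the smallest two-sided p of an exact permutation test is 0.333. The ratio of Jak1 to Tyk2 was 7.20 and 7.66 against 7.27 and 6.68, which overlapped.

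Ifnar2, Ifnar1 and Ifngr2 lie on the same strand of chromosome 16 within 191 kb, together with Il10rb, which is the only other protein-coding gene of this span in the table. Il10rb encodes a chain shared by the receptors of interleukin-10 and of the lambda interferons. It starts 645 bases after the end of Ifnar2, from 91406235 to 91425834. Il10rb had 32 and 36 counts in NC retinas and 42 and 110 in anti-miR-124 retinas, or 2.89, 3.17, 3.85 and 9.27 TPM. Its groups did not overlap, and the pair B anti-miR-124 library stood far above the other 3. The log2 fold change of Il10rb was 1.06 (standard error 0.44, 95% interval 0.02 to 2.11, unadjusted p = 0.0476, adjusted p = 0.989, edgeR). It was 0.31 without that library, and 1.55 without the pair A anti-miR-124 library. The 3 neighbours in the cluster had log2 fold changes of -0.11, 0.01 and 0.13. Ifnlr1, the chain specific to the lambda interferons, had 3 and 2 counts in NC retinas and 5 and 7 in anti-miR-124 retinas and did not pass the filter.

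**Figure D2:**
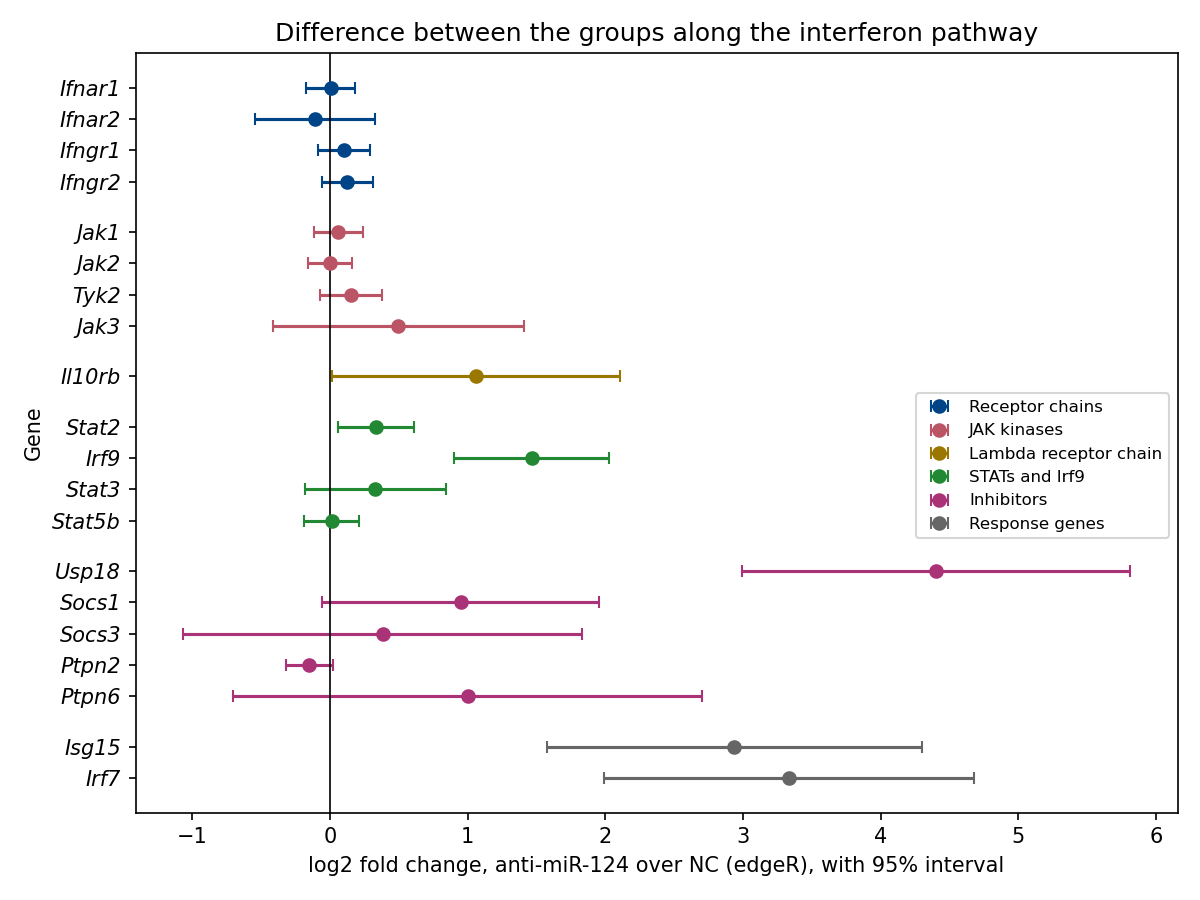
Log2 fold change of the anti-miR-124 group over the NC group by edgeR (points) with its 95% interval (bars), for genes grouped by their role in the interferon pathway. The intervals of all 8 receptor and kinase genes include 0, while those of Stat2, Irf9, Usp18, Isg15, Irf7 and Il10rb do not.

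Irf9 and Stat2 act after the kinases of the type I receptor, where their proteins bind DNA in 1 complex. Irf9, the DNA-binding partner of STAT2, had 137 and 131 counts in NC retinas and 287 and 501 in anti-miR-124 retinas. Its groups did not overlap, and the log2 fold change was 1.47 (standard error 0.23, 95% interval 0.90 to 2.03, adjusted p = 0.672, edgeR). The log2 fold change of Irf9 was 1.75 without the pair A anti-miR-124 library and 1.10 without that of pair B. Each of these fits leaves 1 library in the anti-miR-124 group. Stat2 had 425 and 537 counts in NC retinas and 550 and 727 in anti-miR-124 retinas, with a log2 fold change of 0.33 (95% interval 0.06 to 0.61, adjusted p = 0.989, edgeR). It was 0.20 (unadjusted p = 0.103) without the pair B anti-miR-124 library. The study picked Stat2 and Irf9 on these libraries, so this is not independent evidence of their direction. By RT-qPCR on separately isolated RNA, the paper reports a similar trend for its candidate genes.

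Among 14 inhibitors of the receptors and kinases, all of them tested, 0 passed the adjusted threshold, 1 was higher at an unadjusted p-value under 0.05 and 0 were lower. This gene was Usp18, which binds IFNAR2 and displaces JAK1 from it, and which is also induced by interferon. Usp18 had 3 and 13 counts in NC retinas and 111 and 253 in anti-miR-124 retinas, with a log2 fold change of 4.41 (standard error 0.59, 95% interval 3.00 to 5.81, adjusted p = 0.487, edgeR). The log2 fold change of Usp18 was 4.83 without the pair A anti-miR-124 library and 3.79 without that of pair B. It was 3.78 without the NC library of pair A and 5.69 without that of pair B. Socs1, which blocks JAK kinases directly, had 9 and 15 counts in NC retinas and 19 and 30 in anti-miR-124 retinas (unadjusted p = 0.0605). Socs3, a related inhibitor, had 92 and 44 counts in NC retinas and 42 and 152 in anti-miR-124 retinas, and its pairs went in opposite directions. The phosphatase genes Ptpn1 and Ptpn2 had log2 fold changes of 0.16 and -0.15. The median over the inhibitors was 0.10, and -0.033 without the pair B anti-miR-124 library.

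At the end of the pathway, 27 of 30 type I interferon response genes were tested, and 23 were higher and 0 lower at an unadjusted p-value under 0.05, while 0 passed the adjusted threshold. Their median log2 fold change was 2.57, also with Oas1a set to its lower bound since its NC libraries were at 0, and 1.84 without the pair B anti-miR-124 library. Isg15, an interferon-induced ubiquitin-like protein, had 6 and 7 counts in NC retinas and 29 and 79 in anti-miR-124 retinas. Ifit1, an interferon-induced RNA-binding protein, had 3 and 3 against 78 and 174, and Irf7, a factor that amplifies type I interferon transcription, had 15 and 11 against 72 and 213. Of 22 interferon gamma response genes, 18 were tested, 10 were higher and 0 lower at an unadjusted p-value under 0.05, and 0 passed the adjusted threshold. The guanylate-binding protein gene Gbp3 had 10 and 14 counts against 82 and 184. The median of the gamma response genes was 1.55, and 0.81 without the pair B anti-miR-124 library. Some genes of both lists were also picked by the study on these libraries, and many of them respond to both interferon types.

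**Figure D3:**
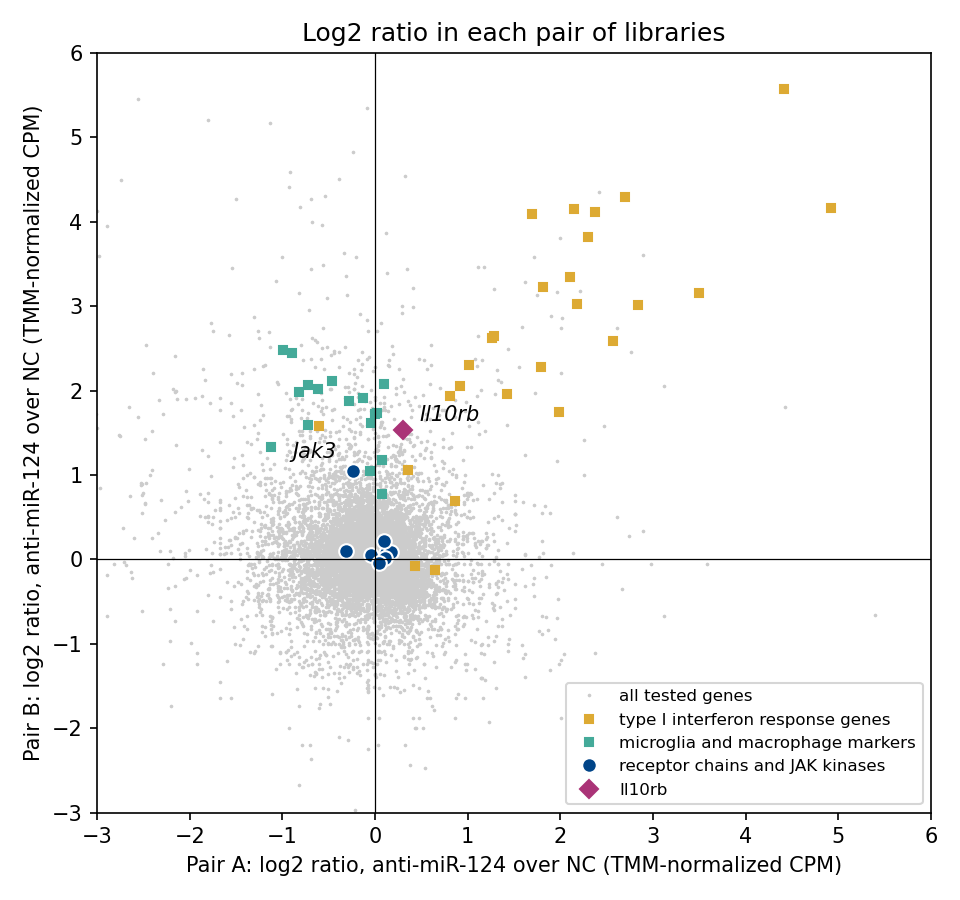
Log2 ratio of the anti-miR-124 over the NC library in pair A (x axis) and pair B (y axis) after TMM normalization. Shown are all tested genes (gray), the 8 receptor and kinase genes (blue), Il10rb, type I interferon response genes, and microglia and macrophage markers. Outside the axes were 47 tested genes, 1 of them a listed response gene. The receptor and kinase genes lie within 0.32 of 0 in both pairs except Jak3. Jak3 was at -0.24 in pair A and 1.06 in pair B, beside microglia and macrophage markers whose medians were -0.20 and 1.80.

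Other cytokine receptor chains share the JAK kinases with the interferon receptors. Of 35 other cytokine receptor chains, 23 were tested, 0 passed the adjusted threshold, and 3 were higher and 1 lower at an unadjusted p-value under 0.05. The median of these chains was 0.26 by the fit, -0.003 within pair A and 0.49 within pair B, and 0.073 without the pair B anti-miR-124 library. Il6st, the signaling chain of the interleukin-6 family, had 1185 and 1285 counts in NC retinas and 1365 and 1682 in anti-miR-124 retinas, a log2 fold change of 0.23 (95% interval 0.04 to 0.41, adjusted p = 0.989, edgeR). It was 0.15 (unadjusted p = 0.106) without the pair B anti-miR-124 library. The study picked Il6st on these libraries, beside the RT-qPCR of candidate genes given above. Csf2rb2 and Il10ra were the other higher chains, and Il12rb2, a chain of the interleukin-12 receptor, had 195 and 240 counts in NC retinas and 174 and 170 in anti-miR-124 retinas (log2 fold change -0.40, 95% interval -0.76 to -0.05).

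The higher level of Jak3 in 1 library came together with higher levels of many microglia and macrophage markers. Microglia are the resident macrophages of the retina. The summed level of 18 microglia and macrophage markers was 300.6 and 242.6 TPM in NC retinas and 289.9 and 789.2 TPM in anti-miR-124 retinas of pairs A and B. All 18 markers had a fitted log2 fold change above 0, with a median of 0.95 that was 0.096 without the pair B anti-miR-124 library, 4 at an unadjusted p-value under 0.05, and 0 past the adjusted threshold. After TMM normalization, 6 of the 18 markers were higher in both pairs and 0 were lower in both. Their medians were -0.20 within pair A and 1.80 within pair B. Ctss, a lysosomal protease of microglia, had 261 and 253 counts in NC retinas and 295 and 1115 in anti-miR-124 retinas. Cd68, another marker of this list, had 81 and 68 counts in NC retinas and 43 and 398 in anti-miR-124 retinas. P2ry12, also on the list, had 77 and 72 counts in NC retinas and 89 and 84 in anti-miR-124 retinas. Il2rg, the common gamma chain that JAK3 binds, had 28 and 21 counts in NC retinas and 17 and 46 in anti-miR-124 retinas. Il7r, which pairs with this chain and was chosen after its values were seen, had 2 and 0 counts against 0 and 102. Ptprc and Ptpn6, phosphatases from the list of inhibitors, had 129 and 108 counts in the pair B anti-miR-124 library against at most 31 in each of the others. The part of microglia and macrophages in the levels of Jak3 and Il10rb was not tested. Summed endothelial markers were at 290.5 and 324.8 TPM in NC retinas and 325.2 and 310.9 TPM in anti-miR-124 retinas. Of the 14 markers of T cells, NK cells and plasmacytoid dendritic cells, 5 had 0 counts in all libraries and 5 passed the filter, and their summed level was 9.44 and 8.55 TPM against 11.1 and 12.3 TPM.

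**Figure D4:**
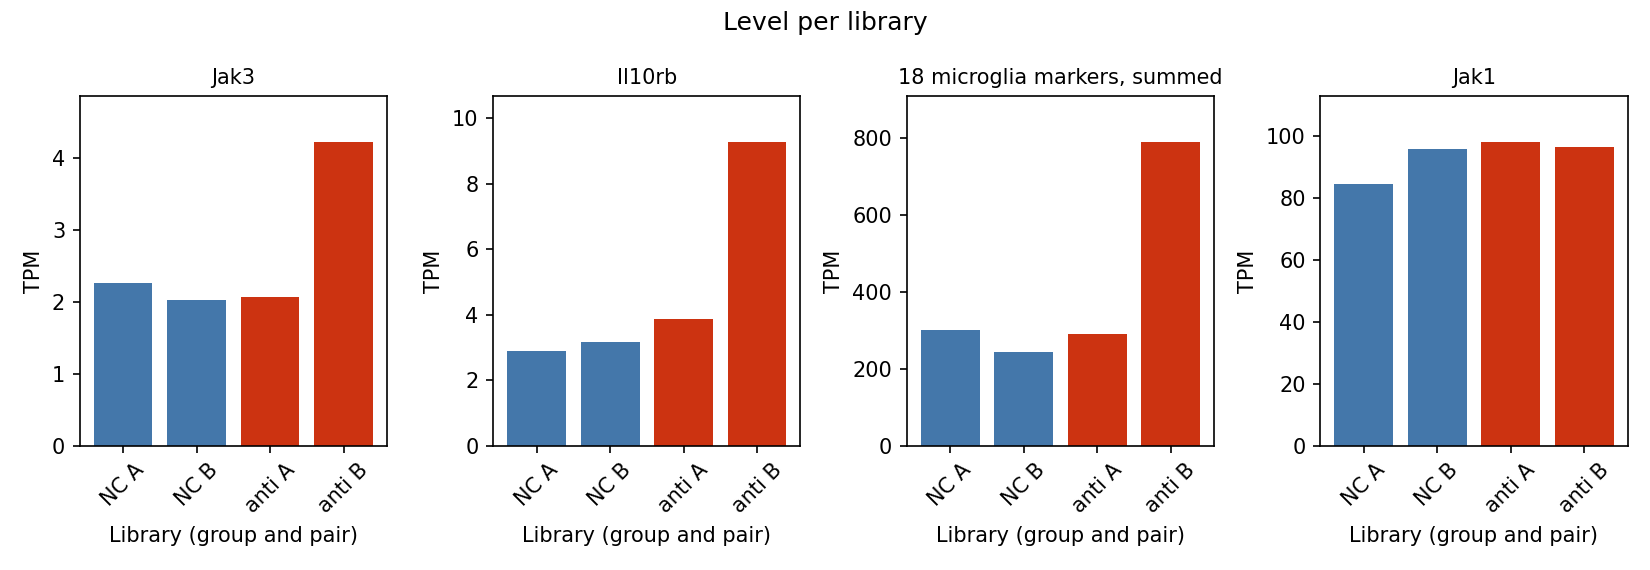
Level in TPM of Jak3, Il10rb, the summed 18 microglia and macrophage markers and Jak1 in each library (bars from 0, NC in blue, anti-miR-124 in red). The pair B anti-miR-124 library was highest for Jak3 (4.22 TPM), Il10rb (9.27 TPM) and these markers (789.2 TPM), but not for Jak1.

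For Tyk2, the genes with the most similar profile were sought among 4757 tested genes of similar abundance, by the Euclidean distance of centred log2 values over the 4 libraries. The nearest were Lhpp (distance 0.02, with 200 and 221 counts in NC retinas and 229 and 268 in anti-miR-124 retinas), Lyrm5 (0.02) and 1700001K19Rik (0.02). With 4 libraries, such likeness is a description only.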

How the data were processed

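The authors deposited read counts per gene for 4 mouse retina libraries, without normalization, gene lengths, and 4 columns of RPKM values, which were not used. The submitters' processing notes name HISAT2 and mm9, without versions, yet 99.8% of 36837 matched symbols overlap RefSeq GRCm38.p6 in position, so positions are given as GRCm38. The counting tool and its strand setting are not given in the sources used here. Tyk2, Jak1 and Ifnar2 overlap genes on the opposite strand, and Jak3 overlaps Insl3, which had 1 to 4 counts. The gene opposite Tyk2 overlaps it by 24326 bases. It had 5 and 10 counts in NC retinas and 15 and 12 in anti-miR-124 retinas. Raver2, opposite Jak1, overlaps by 397 bases and had 204 to 277 counts. Gm36587, opposite Ifnar2, overlaps by 7025 bases and had 1 to 5 counts. Whether such reads entered the counts of Tyk2, Jak1, Ifnar2 or Jak3 was not tested.

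Columns were assigned to groups by the eye they name. Counts were tested with edgeR 4.0.16 (quasi-likelihood, TMM, its filter on low counts, no covariate, two-sided) in R 4.3.3, with Benjamini-Hochberg adjustment over all genes and a threshold of 0.05. DESeq2 1.42.0 and limma-voom (limma 3.58.1) were alternatives. The standard error is the log2 fold change divided by the square root of F. The script was tested on simulated data. Intervals and the limit of 3 counts cover counting and library spread only, and not other animals. Python 3.11.15 was used for promoters and plots.

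The genes and lists were chosen with earlier results of these data known. The text names all 10 genes, pathway genes fixed by name, and genes among the smallest p-values of each list. Other list genes, such as Cd68 and P2ry12, were added outside these rules. The sequence of miR-124-3p is not shown here. Some items are not reported here.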

Additional observations from a re-analysis of the deposited data

How the results depend on the processing

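The log2 fold changes of Ifnar1, Ifnar2, Ifngr1, Ifngr2, Jak1, Jak3 and Tyk2 kept their sign under 10 alternatives of normalization, filter, test and design, and 0 of the 8 genes passed the threshold under any, the smallest adjusted p being 0.841 (Jak3). Jak2 was at -0.00026 with upper quartile normalization. Leaving out 1 library at a time gave ranges of -0.049 to 0.064 for Ifnar1, -0.218 to 0.0096 for Ifnar2, -0.024 to 0.030 for Jak2 and -0.095 to 0.910 for Jak3, with adjusted p-values of at least 0.301. The other 4 genes stayed above 0. The cause of these turns of sign was not tested.

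Among all tested genes 0 passed the adjusted threshold, and 379 without a filter, 36 with DESeq2's Wald test, and 0 to 256 with 1 library left out. At an unadjusted p-value it was 694, and 1577 without a filter, 308 with DESeq2 and 333 to 1893 with 1 library left out. With the replicate number as a block, 376 genes had an unadjusted p-value under 0.05 and 0 an adjusted one. The groups are fellow eyes, but whether a shared number means the same mice is not given, and the deviations of same-numbered libraries had a correlation of -0.16. With the numbers crossed, a pairing added after seeing the data, 160 genes passed the adjusted and 1306 the unadjusted threshold. Without a filter the median was 0.069 over 9 genes, since Ifng enters. With 1 library left out, medians ran from 0.059 to 0.091 for these genes, 1.84 to 2.88 for the type I and 0.81 to 2.08 for the gamma response genes. In these fits the lone library of a group is assumed to vary like the others. Genes with under 10 counts per library, such as Ifnlr1, are limited by depth.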
